A study of Mus musculus with 24 samples.

Results

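The genes described here are 8 genes of the response to glucocorticoids, the adrenal stress hormones: the receptors Nr3c1 and Nr3c2 and the target genes Fkbp5, Tsc22d3, Zbtb16, Sgk1, Pdk4 and Errfi1. They were picked by gene symbol, each symbol matched 1 of the 17270 genes in the deposited table, and all 8 passed the filter on low values. The table holds 24 RNA sequencing libraries of mouse brain microvessels (MBMVs), 3 in each of 8 groups formed by surgery, hemisphere and time. The mice were male C57BL/6J, aged 10 to 12 weeks, with no transgene or gene deletion in any group. One set was subjected to transient middle cerebral artery occlusion (tMCAO), in which a silicone-coated filament blocked the right artery for 60 min before reperfusion. In the sham set the filament was pulled back as soon as it reached the branching point. Microvessels were taken 24 h or 7 days later from the operated (ipsilateral) and the opposite (contralateral) hemisphere. Mice of both sets were anesthetized with isoflurane, were given buprenorphine for pain and were supported by warming, saline and feeding. Each library pooled 3 hemispheres, so that 9 animals stood behind a group, and it held vessels of infarct, infarct border and intact tissue together. The volume of the stroke was not measured in these animals.

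Glucocorticoids enter the brain through the vessel wall and bind the glucocorticoid receptor, encoded by Nr3c1, which is held in the cytosol by a chaperone complex with Hsp90 and moves to the nucleus once it has bound hormone. The mineralocorticoid receptor, encoded by Nr3c2, binds the same hormone with higher affinity and also binds aldosterone. On DNA both act at pairs of short motifs and switch on genes such as Fkbp5, whose product loosens the receptor's grip on hormone and so forms a feedback loop. At the blood-brain barrier glucocorticoids are known for tightening endothelial junctions, and levels of the hormone follow a daily rhythm and rise with stress.

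Values are normalized counts, that is, reads divided by a size factor per library, and they are listed in the order of replicates 1, 2 and 3. Library totals lay between 15924780 and 18787932 normalized counts, and gaps between low values corresponded to an estimated 13691467 to 20033951 reads. All 10 endothelial markers looked up were present in every library, with Cldn5, a tight junction protein, at 42176 to 74690 and Pecam1 at 23168 to 39813 normalized counts. The libraries also held pericyte and smooth muscle, astrocyte, oligodendrocyte, choroid plexus and erythroid transcripts. The T cell genes Cd3d, Cd3e and Cd3g reached at most 14, Cd2 at most 20 and Lck at most 37. In sham mice the summed erythroid markers were at 422 to 6122 contralaterally and 1065 to 12539 ipsilaterally at 24 h. At 7 days they were at 16563 to 58227 and 24148 to 76785, without overlap. After tMCAO the sums of the time points overlapped. The part of the erythroid difference in the levels of the 8 genes was not tested. An ipsilateral and a contralateral library with the same number, surgery and time are called a pair, since the labels number them alike, although no source used here states that they come from the same mice. In the sham group at 7 days pair 3 stood apart from pairs 1 and 2 for the glucocorticoid targets, and results that rest on it are given with and without it. Since the pair was singled out by its levels of these same genes, the values without it show its weight and are no test of a stroke effect.

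Binding motifs could be looked up near the start sites of 6 of the 8 genes, in 14 RefSeq windows of the GRCm38.p6 build that reach from 250 bases before to 50 bases after a start. The hexamer AGAACA, or TGTTCT on the other strand, to which the receptors bind, occurred in 4 of these windows, of Sgk1 and Tsc22d3 alone, and in 19.0% of all 32851 mouse windows. A pair of them facing each other with 3 bases between, the classical layout for a receptor dimer, was found in 1 Sgk1 window and in 3 of all windows. Sgk1 windows at chr10:21881934-21882233 and chr10:21991973-21992272 held 1 hexamer each, at -195 and -13 from the start, and are not shown. The Sgk1 window with the facing pair and the Tsc22d3 window are shown, 5′ to 3′ in the direction of the gene and with each hexamer in capitals. The first lies at chr10:21993640-21993939 on the plus strand, with hexamers at -242, -189 and -180 from the start, and the second at chrX:140600473-140600772 on the minus strand, with 1 hexamer at -185.
Sgk1: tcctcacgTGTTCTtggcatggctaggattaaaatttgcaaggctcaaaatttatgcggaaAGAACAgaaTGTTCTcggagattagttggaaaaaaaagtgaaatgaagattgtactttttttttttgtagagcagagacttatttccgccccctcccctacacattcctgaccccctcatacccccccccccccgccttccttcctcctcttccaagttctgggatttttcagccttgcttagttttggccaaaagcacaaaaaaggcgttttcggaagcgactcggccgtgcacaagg
Tsc22d3: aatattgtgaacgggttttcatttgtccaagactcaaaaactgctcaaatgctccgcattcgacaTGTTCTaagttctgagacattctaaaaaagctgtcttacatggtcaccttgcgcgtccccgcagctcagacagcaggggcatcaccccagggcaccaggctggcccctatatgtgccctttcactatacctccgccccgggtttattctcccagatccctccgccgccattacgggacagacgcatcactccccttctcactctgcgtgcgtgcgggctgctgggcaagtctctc
Windows of Nr3c1 and Zbtb16 were not analysed here. The windows of Fkbp5, Pdk4, Errfi1 and Nr3c2 did not contain these letters.

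**Figure D1:**
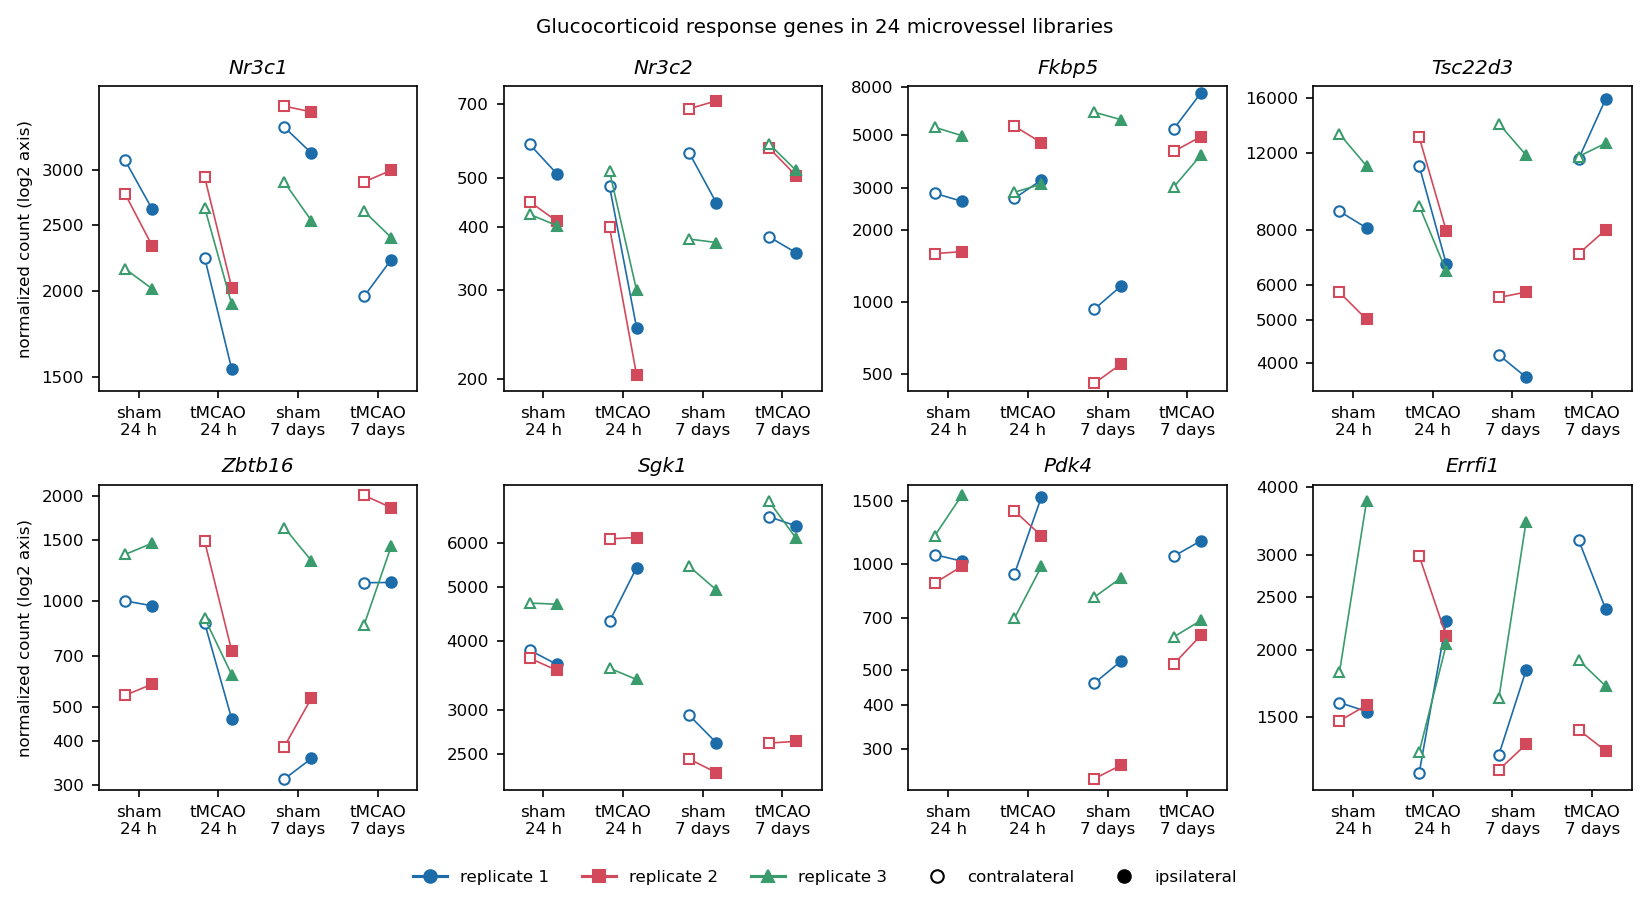
Normalized counts (log2 axis) of the 8 genes in the 24 libraries, by surgery and time; open symbols are contralateral and filled symbols ipsilateral libraries, and a line joins the hemispheres of a same-numbered pair. Nr3c2 was at 204 to 300 in the ipsilateral libraries 24 h after tMCAO and at 356 or above in all others, and Fkbp5 ranged from 458 to 7521, with pair 3 of the sham mice at 7 days far above pairs 1 and 2.

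Both receptors had their lowest group mean in the hemisphere with the stroke at 24 h. Nr3c2 (ENSMUSG00000031618, chr8:76899772-77245012, plus strand, mm10) was at 253, 204 and 300 normalized counts in the ipsilateral libraries 24 h after tMCAO. It was at 510, 411 and 403 in the ipsilateral sham libraries. The groups did not overlap, with means of 252 ± 48 and 441 ± 60 (SD, n = 3). The log2 fold change was -0.81 (SE 0.24, 95% confidence interval -1.32 to -0.30, adjusted p = 0.0168, limma). A gene was called when its Benjamini-Hochberg adjusted p was under 0.05 and its level changed by more than 1.5-fold in either direction. Nr3c2 was the 1 of the 8 genes that met this, in a comparison in which 18.3% of 15982 tested genes did, and also the 1 of 8 whose libraries did not overlap, as was so for 49% of all genes. The call was lost without ipsilateral sham replicate 1 (log2 fold change -0.71, adjusted p = 0.0768), without ipsilateral tMCAO replicate 2 (-0.67, adjusted p = 0.0841) or without the whole of tMCAO pair 1 (-0.82, adjusted p = 0.0514).

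Against the contralateral hemisphere of the same set, the fall of Nr3c2 at 24 h had a like size. The contralateral tMCAO libraries were at 482, 400 and 516 normalized counts, all above the 3 ipsilateral ones. The log2 fold change between hemispheres was -0.89 (SE 0.24, adjusted p = 0.0113), in a comparison in which 13.6% of genes were called. Without ipsilateral replicate 2 the adjusted p was 0.0629, without the whole of pair 1 or pair 2 it was 0.0783 or 0.0651, and with libraries centred on the endothelial markers it was 0.0625. In the sham mice at 24 h the hemispheres differed by -0.13 (95% confidence interval -0.64 to 0.38), with contralateral values of 583, 449 and 424. The difference between these hemisphere effects, tested as an interaction, was -0.76 (SE 0.34, adjusted p = 0.178) and was not called, as 5.89% of genes were. With same-numbered pairs as a block in limma, it had an SE of 0.12 and an adjusted p of 0.00118. It was then called, as 11.7% of genes were, but no source used here states that the tMCAO pairs share mice.

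At 7 days the mineralocorticoid receptor was back in the range of the controls. Ipsilateral Nr3c2 was at 356, 506 and 518 normalized counts after tMCAO and at 447, 711 and 373 after sham surgery, and these ranges overlapped. The contralateral values were 383, 574 and 585 after tMCAO and 561, 686 and 379 after sham surgery. From 24 h to 7 days the ipsilateral tMCAO libraries rose by 0.86 on the log2 scale (SE 0.24, adjusted p = 0.0179), without overlap and with 12.2% of all genes called. This call was lost when either of 2 libraries at 24 h (replicates 1 and 2) or 2 libraries at 7 days (replicates 2 and 3) was left out, with adjusted p from 0.0543 to 0.0836 and log2 fold changes from 0.72 to 0.87. It was also lost when libraries were centred on the endothelial markers (0.65, adjusted p = 0.147). The stroke effect changed from 24 h to 7 days by 0.70 (SE 0.34, adjusted p = 0.205), which was not called in an interaction test that called 8.12% of genes.

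Marker genes of other cells moved in the same comparisons. At 24 h the summed level of 7 astrocyte markers was 11232 to 17070 normalized counts in the ipsilateral tMCAO libraries and 17643 to 25890 in the ipsilateral sham libraries, and 5 of the 7 fell. The 6 neuron markers summed to 1491 to 2032 against 4070 to 4295, and 4 of 6 fell. For the 8 mural markers (pericytes and smooth muscle) the sums were 74800 to 129750 against 128851 to 154193, with 2 of 8 lower, and for the 10 endothelial markers 340379 to 414209 against 352337 to 468279, with 1 higher. The sums of 8 neutrophil and monocyte markers were 3217 to 6117 against 322 to 1189, and all 7 tested rose, while Ly6g was at 0 in 2 of the 24 libraries. Between the tMCAO hemispheres at 24 h 3 of 7 astrocyte, 2 of 6 neuron and 2 of 8 mural markers were lower and 3 of 7 neutrophil and monocyte markers higher ipsilaterally. From 24 h to 7 days in the ipsilateral tMCAO libraries 4 of 6 neuron, 3 of 4 choroid plexus and 2 of 8 mural markers fell, whereas Nr3c2 rose. The part of these shifts in the levels of Nr3c2 was not tested, and in bulk RNA fewer cells of a type and less RNA per cell cannot be told apart.

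Nr3c1 (ENSMUSG00000024431, chr18:39410545-39490674, minus strand), the glucocorticoid receptor, had its lowest group mean in the same group, the ipsilateral libraries 24 h after tMCAO. It was at 1540, 2023 and 1914 normalized counts ipsilaterally and at 2238, 2932 and 2648 contralaterally 24 h after tMCAO. The hemispheres did not overlap and differed by -0.51 on the log2 scale (SE 0.18, adjusted p = 0.0399), which is under the fold limit. Sham libraries at 24 h were at 2635, 2331 and 2017 ipsilaterally and at 3103, 2774 and 2158 contralaterally, and in every one of these 3 pairs the ipsilateral value was the lower one. Against ipsilateral sham the log2 fold change at 24 h was -0.35 (SE 0.18, adjusted p = 0.138), with overlap between the groups.

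At 7 days Nr3c1 was highest in the sham mice. The sham libraries had 3177, 3648 and 2533 normalized counts ipsilaterally and 3465, 3718 and 2882 contralaterally. After tMCAO the values were 2224, 3000 and 2395 ipsilaterally and 1966, 2885 and 2615 contralaterally, so the groups overlapped on both sides. The log2 fold change between surgeries was -0.29 (SE 0.18, adjusted p = 0.294) ipsilaterally and -0.44 (SE 0.18, adjusted p = 0.409) contralaterally. Neither was called. Between 24 h and 7 days ipsilateral Nr3c1 was higher without overlap after tMCAO, by 0.47 (SE 0.18, adjusted p = 0.0671), and higher with overlap after sham surgery, by 0.41 (SE 0.18, adjusted p = 0.291).

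Fkbp5 (ENSMUSG00000024222, chr17:28399095-28517524, minus strand) encodes the immunophilin of the feedback loop and is widely used as a readout of glucocorticoid action. At 24 h it was at 3250, 4660 and 3126 normalized counts in the ipsilateral tMCAO libraries and at 2651, 1631 and 4992 in the ipsilateral sham libraries. The sham range enclosed the tMCAO range, and the log2 fold change was 0.38 (SE 0.78, 95% confidence interval -1.24 to 2.0, adjusted p = 0.741). Contralaterally the values were 2728, 5467 and 2890 against 2863, 1601 and 5407, again with overlap, and the log2 fold change was 0.27 (SE 0.78).

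At 7 days the ipsilateral tMCAO libraries held 7521, 4941 and 4135 normalized counts of Fkbp5. The sham libraries held 1173, 553 and 5814. Pairs 1 and 2 of the sham mice were thus the lowest of the series and pair 3 among the highest, while the tMCAO libraries varied far less. The log2 fold change was 1.78 (SE 0.78, 95% confidence interval 0.16 to 3.40, adjusted p = 0.130) and was not called, as 13.2% of genes were. Contralaterally, at 5324, 4283 and 3042 against 935, 458 and 6257, it was 1.56 (SE 0.78, adjusted p = 0.505), and the difference between these effects was 0.22 (SE 1.10, adjusted p = 0.949) in an interaction test that called 9.84% of genes. With same-numbered pairs as a block in limma, this difference had an SE of 0.14 and an adjusted p of 0.346. Without sham pair 3 the ipsilateral value was 2.73 (SE 0.51, adjusted p = 0.00153) and the gene was called, as 12.2% of genes then were. Without ipsilateral sham replicate 2 it was 1.04 (SE 0.80, adjusted p = 0.457).

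Tsc22d3 (ENSMUSG00000031431, chrX:140539528-140600659, minus strand) encodes GILZ, a leucine zipper protein through which glucocorticoids restrain inflammation. In the tMCAO mice at 24 h it was at 6705, 7969 and 6462 normalized counts ipsilaterally and at 11198, 13010 and 9083 contralaterally, so the hemispheres did not overlap. Their difference of -0.65 (SE 0.43, adjusted p = 0.292) was not called. With same-numbered pairs as a block in limma, it was called (SE 0.08, adjusted p = 7.89e-05), as 17.1% of genes were. Sham values at 24 h were 8091, 5014 and 11188 ipsilaterally and 8826, 5778 and 13229 contralaterally, and the ipsilateral library was lower in each of the 3 pairs. The hemisphere difference of the sham mice was -0.19 (SE 0.43), and the interaction of -0.46 (SE 0.61, adjusted p = 0.687) was not called. With same-numbered pairs as a block in limma, the interaction had an SE of 0.12 and an adjusted p of 0.0184. It was under the fold limit and not called there either, where 11.7% of genes were.

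At 7 days Tsc22d3 stood at 15891, 8012 and 12605 normalized counts in ipsilateral tMCAO libraries and at 3707, 5785 and 11849 in ipsilateral sham libraries. Pair 3 of the sham group again reached the tMCAO range, while pairs 1 and 2 lay below it. The log2 fold change was 0.89 (SE 0.43, adjusted p = 0.181) with all libraries and 1.34 (SE 0.36, adjusted p = 0.0180) without sham pair 3, when 12.2% of genes were called. Without ipsilateral sham replicate 1 it was 0.50 (SE 0.46, adjusted p = 0.548). On the contralateral side the values were 11607, 7069 and 11755 against 4163, 5624 and 13957, and the log2 fold change was 0.52 (SE 0.43, adjusted p = 0.752).

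Zbtb16 (ENSMUSG00000066687, chr9:48654297-48836222, minus strand) encodes PLZF, a transcriptional repressor that glucocorticoids induce in many tissues. At 24 h after tMCAO it was at 462, 722 and 618 normalized counts ipsilaterally and at 868, 1483 and 896 contralaterally, again without overlap. The difference of -0.83 (SE 0.54, adjusted p = 0.276) was not called, and neither was that against ipsilateral sham (972, 581 and 1465 normalized counts), at -0.67 (SE 0.54, adjusted p = 0.362). With same-numbered pairs as a block in limma, the difference between hemispheres was called (SE 0.16, adjusted p = 0.00150), as 17.1% of genes were. By 7 days the ipsilateral tMCAO libraries had 1133, 1851 and 1436 normalized counts, all above the values at 24 h, and the log2 fold change of 1.29 (SE 0.54) had an adjusted p of 0.0998.

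In sham mice at 7 days Zbtb16 was at 357, 531 and 1306 normalized counts ipsilaterally and at 312, 386 and 1622 contralaterally, with the same split between pair 3 and the others as for Fkbp5. The ipsilateral stroke effect was 1.20 (SE 0.54, adjusted p = 0.142), and 1.73 (SE 0.41, adjusted p = 0.00879) without sham pair 3, when 12.2% of genes were called. Without ipsilateral sham replicate 1 it was 0.79 (SE 0.58, adjusted p = 0.433). Contralaterally, with tMCAO values of 1131, 2007 and 857, it was 1.10 (SE 0.54, adjusted p = 0.495). Of the 8 genes Zbtb16 had the largest change of the stroke effect between the time points, 1.87 (SE 0.76, adjusted p = 0.124), which was not called.

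**Figure D2:**
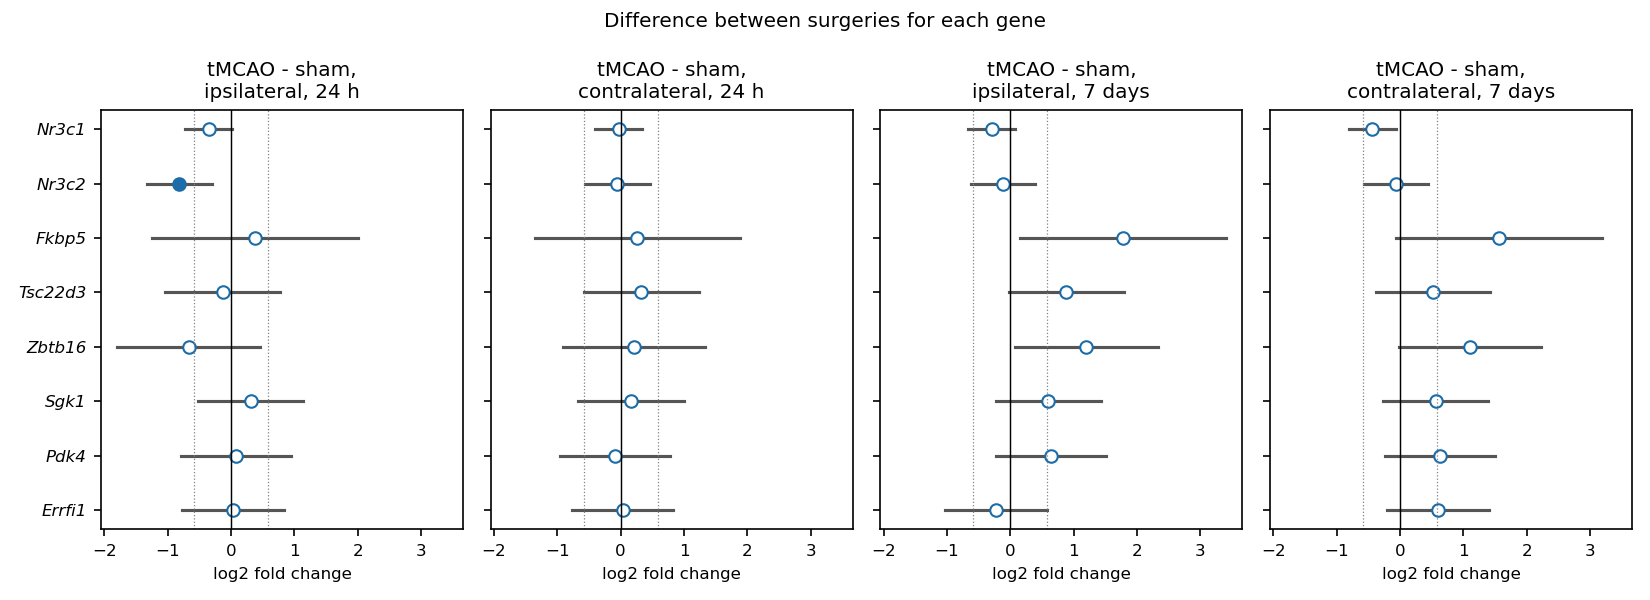
Log2 fold change between tMCAO and sham for each gene on each side and at each time, with the 95% confidence interval from limma; a filled point is a called gene and dotted lines mark the fold limit of 1.5. Nr3c2 at 24 h is the filled point, and at 7 days Fkbp5, Tsc22d3, Zbtb16, Sgk1 and Pdk4 lie to the right of 0 on both sides with wide intervals.

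Sgk1 (ENSMUSG00000019970, chr10:21882184-21999903, plus strand) encodes a kinase that raises sodium transport and is a direct target of both receptors. Ipsilateral libraries at 24 h were at 5426, 6150 and 3404 normalized counts after tMCAO and at 3624, 3536 and 4657 after sham surgery. The log2 fold change of 0.31 (SE 0.40, adjusted p = 0.5852) was within the spread. The contralateral values, 4335, 6116 and 3567 against 3845, 3719 and 4681, overlapped as well. At 7 days replicate 2 of the tMCAO group, with 2630 normalized counts, lay at the sham level, while replicates 1 and 3 were at 6455 and 6134. The sham libraries were at 2615, 2309 and 4944, and the log2 fold change was 0.60 (SE 0.40, adjusted p = 0.345). Contralaterally the split was the same, with 6708, 2611 and 7154 against 2932, 2443 and 5453 and a log2 fold change of 0.56 (SE 0.40). Without ipsilateral tMCAO replicate 2 the difference was 1.02 (adjusted p = 0.0979) and not called, and without the whole of that pair the same difference had an adjusted p of 0.0458 and was called, with 12.6% of all genes. Without tMCAO replicate 1 it was 0.37 (adjusted p = 0.668).

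Pdk4 (ENSMUSG00000019577, chr6:5483351-5496309, minus strand) encodes a kinase that shuts off pyruvate dehydrogenase and turns cells from glucose to fat as fuel. It was at 1016, 982 and 1557 normalized counts in ipsilateral sham libraries at 24 h and at 531, 270 and 912 at 7 days. The contralateral sham libraries were at 1060, 881 and 1197 at 24 h and at 459, 247 and 803 at 7 days. On both sides all values at 7 days lay under all values at 24 h, as they did for no other of the 8 genes in the sham mice, against 22% of all genes ipsilaterally and 17.6% contralaterally without overlap. The log2 fold changes were -1.19 (SE 0.42, adjusted p = 0.190) and -1.20 (SE 0.42, adjusted p = 0.251) and were not called, as 0.476% and 0.332% of genes were. Without sham pair 3 of 7 days Pdk4 was called ipsilaterally, where 0.795% of genes then were.

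Between the surgeries Pdk4 was not called. Ipsilaterally it was at 1542, 1197 and 982 normalized counts at 24 h and at 1159, 627 and 691 at 7 days after tMCAO. The log2 fold changes against sham were 0.07 (SE 0.42, adjusted p = 0.909) and 0.65 (SE 0.42, adjusted p = 0.328). Contralateral tMCAO libraries were at 933, 1409 and 700 at 24 h and at 1049, 521 and 621 at 7 days.

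Errfi1 (ENSMUSG00000028967, chr4:150853919-150868892, plus strand) encodes Mig-6, a feedback inhibitor of the epidermal growth factor receptor. Its values varied widely between the hemispheres of the sham pairs. The ipsilateral library of pair 3 held 3770 normalized counts at 24 h and 3443 at 7 days, while its contralateral partners held 1819 and 1630. The remaining ipsilateral sham libraries held 1538 and 1580 at 24 h and 1832 and 1337 at 7 days, and the remaining contralateral ones 1598 and 1478 at 24 h and 1280 and 1200 at 7 days. Over all pairs the sham hemispheres differed by 0.36 (SE 0.39) at 24 h and 0.58 (SE 0.39) at 7 days, both with an adjusted p of 1. After tMCAO the ipsilateral values were 2263, 2120 and 2046 at 24 h and 2379, 1301 and 1714 at 7 days, against 1184, 2983 and 1295 and 3192, 1423 and 1914 contralaterally. No difference in Errfi1 was called, and the stroke effects were 0.03 (SE 0.39) and -0.22 (SE 0.39) ipsilaterally.

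In the comparisons away from the lesion none of the 8 genes was called. Between the contralateral hemispheres at 24 h their log2 fold changes lay between -0.09 and 0.32. There limma called 0% of genes, with 405 at an unadjusted p under 0.05. At 7 days the contralateral values lay between -0.44 for Nr3c1 and 1.56 for Fkbp5, with 0.0313% of genes called, and without sham pair 3 Fkbp5 was called, where 0.244% of genes were. In the contralateral tMCAO libraries Pdk4 had the largest shift from 24 h to 7 days, -0.48 (SE 0.42, adjusted p = 0.608), and 0% of genes were called there with 2637 at an unadjusted p under 0.05. Between the hemispheres of the sham mice no gene at all was called at either time (0%) in the fit without a term for pairs. There 367 and 359 genes had an unadjusted p under 0.05. With same-numbered pairs as a block in limma, 898 and 980 genes did. That fit called 1 gene (0.00626%) at 24 h and 0 at 7 days, and none of the 8.

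Between the hemispheres of the tMCAO mice at 24 h, 4 of the 8 genes did not overlap, namely Nr3c1, Nr3c2, Tsc22d3 and Zbtb16, all lower on the side of the stroke. Of all genes 40.8% had no overlap there. Each of the 4 was lower ipsilaterally in 3 of 3 pairs, which follows from the lack of overlap and adds nothing to it. The same 4 genes were higher without overlap in the ipsilateral tMCAO libraries at 7 days than at 24 h, a comparison in which 34.2% of all genes had no overlap in one direction or the other. Both comparisons use the same 3 ipsilateral libraries of 24 h. Between the hemispheres at 7 days, when 13% of genes were called, none of the 8 was, although Fkbp5, Tsc22d3 and Pdk4 were higher ipsilaterally in 3 of 3 pairs, by 0.38, 0.24 and 0.19 on the log2 scale. With same-numbered pairs as a block in limma, 15.3% of genes were called and again none of the 8. Fkbp5 and Tsc22d3 then had adjusted p of 0.0141 and 0.0497 but lay under the fold limit, and Pdk4 had an adjusted p of 0.363.

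The order of the 8 groups by their mean log2 level differed between the genes. For Fkbp5 it ran from the sham libraries at 7 days through those at 24 h and tMCAO at 24 h to tMCAO at 7 days, each time with both hemispheres side by side. For Nr3c1 it began with the ipsilateral tMCAO libraries at 24 h and ended with the sham libraries at 7 days. Of the 7 steps between neighbours in such an order, 0 were free of overlap for 7 of the genes. Nr3c2 had 1 such step, that from the ipsilateral tMCAO libraries at 24 h to the ipsilateral sham libraries at 24 h.

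The spread between pairs of 1 condition was larger for the targets than for the receptors. Taken over both hemispheres, the SD between the 12 pairs within their conditions was 1.06 on the log2 scale for Fkbp5, larger than that of 99.3% of all genes. It was 0.71 for Zbtb16, 0.58 for Tsc22d3, 0.55 for Pdk4, 0.54 for Sgk1 and 0.45 for Errfi1, against a median of 0.19 over all genes. The receptors had 0.32 (Nr3c2) and 0.23 (Nr3c1). By contrast the hemispheres of a pair differed with an SD of 0.19 for Fkbp5, 0.14 for Tsc22d3 and 0.12 for Sgk1, under the median of 0.24 over all genes. A library with high Fkbp5 thus had a same-numbered partner with high Fkbp5. The SD between hemispheres was above that median for Pdk4 (0.28), Zbtb16 (0.33) and Errfi1 (0.54).

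**Figure D3:**
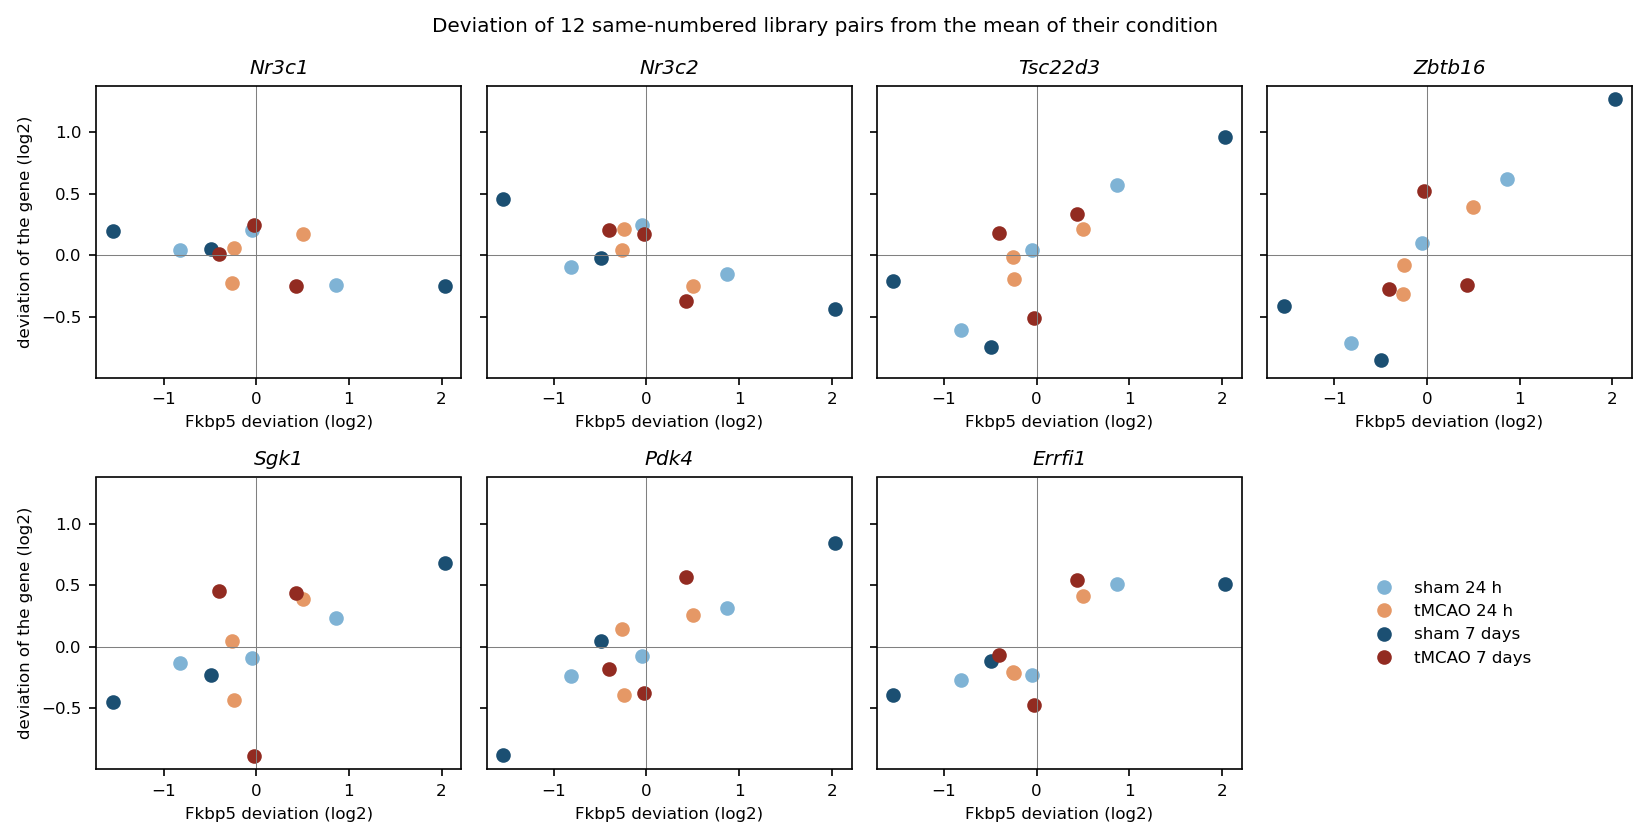
Deviation of each same-numbered pair of libraries (mean of both hemispheres, log2 scale) from the mean of its condition, for Fkbp5 on the x axis and each other gene on the y axis; each point is 1 of 12 pairs and colors mark the conditions. The points of 5 targets run upwards and those of both receptors downwards, and pair 3 of the sham mice at 7 days lies at the far right.

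Pairs with more Fkbp5 tended to have more of the other targets, although of the 7 relations computed 2 passed for r and 0 for rho after adjustment. The share of all tested genes with as strong a relation to Fkbp5 was not computed. Whether such relations are particular to glucocorticoid targets was thus not tested. Over the 12 pairs, as deviations from the mean of their condition, Fkbp5 was related to Errfi1 (Pearson's r = 0.785, Spearman's rho = 0.629) and Pdk4 (r = 0.875, rho = 0.727), with 2-sided exact permutation p-values of 0.00463 and 0.00772 for r and of 0.0741 and 0.0285 for rho. Pairs were permuted within conditions, and 0.00463 was the smallest unadjusted p obtained among these relations. After Benjamini-Hochberg adjustment over the 7 relations, these values were 0.0270 and 0.0270 for r and 0.130 and 0.0720 for rho. Zbtb16 (r = 0.836, rho = 0.909), Tsc22d3 (r = 0.789, rho = 0.797) and Sgk1 (r = 0.621, rho = 0.531) had adjusted exact permutation p-values of 0.0519, 0.0765 and 0.0519 for r and of 0.0594, 0.0720 and 0.147 for rho. Without the 2 pairs farthest from the median of Fkbp5, which were sham pairs 2 and 3 of 7 days, r was 0.784 for Errfi1, 0.663 for Pdk4, 0.775 for Zbtb16, 0.782 for Tsc22d3 and 0.372 for Sgk1.

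For the receptors the relation to Fkbp5 was negative in sign and did not pass after adjustment. For Nr3c2 r was -0.774 and rho -0.636, with adjusted exact permutation p-values of 0.0519 and 0.132, and for Nr3c1 r was -0.564 and rho -0.329, with 0.10 and 0.364. In 10 of 12 pairs each receptor deviated to the opposite side from Fkbp5, and without the same 2 pairs r was -0.496 and -0.311. A condition holds 3 pairs, too few for a value of its own.

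The libraries of sham pair 3 at 7 days differed from pairs 1 and 2 in other genes as well. Their endothelial markers summed to 528018 and 503516 normalized counts, against 335487 to 377753, and their neutrophil and monocyte markers to 1345 and 1760, against 242 to 392. The summed level of 26 other genes known to be induced by glucocorticoids was 172763 and 183247, against 86920 to 96335. Over the 8 genes the median stroke effect at 7 days was 0.62 ipsilaterally and 0.58 contralaterally with all libraries, beside 0.02 and 0.01 for all genes, and 1.0 and 0.97 without this pair. In the ipsilateral comparison at 7 days all 6 neuron markers, 3 of 7 astrocyte and 3 of 4 choroid plexus markers were lower after tMCAO, and 0 of 10 endothelial markers were called. The part of cell makeup in the high Fkbp5, Tsc22d3 and Zbtb16 of this pair was not tested.

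**Figure D4:**
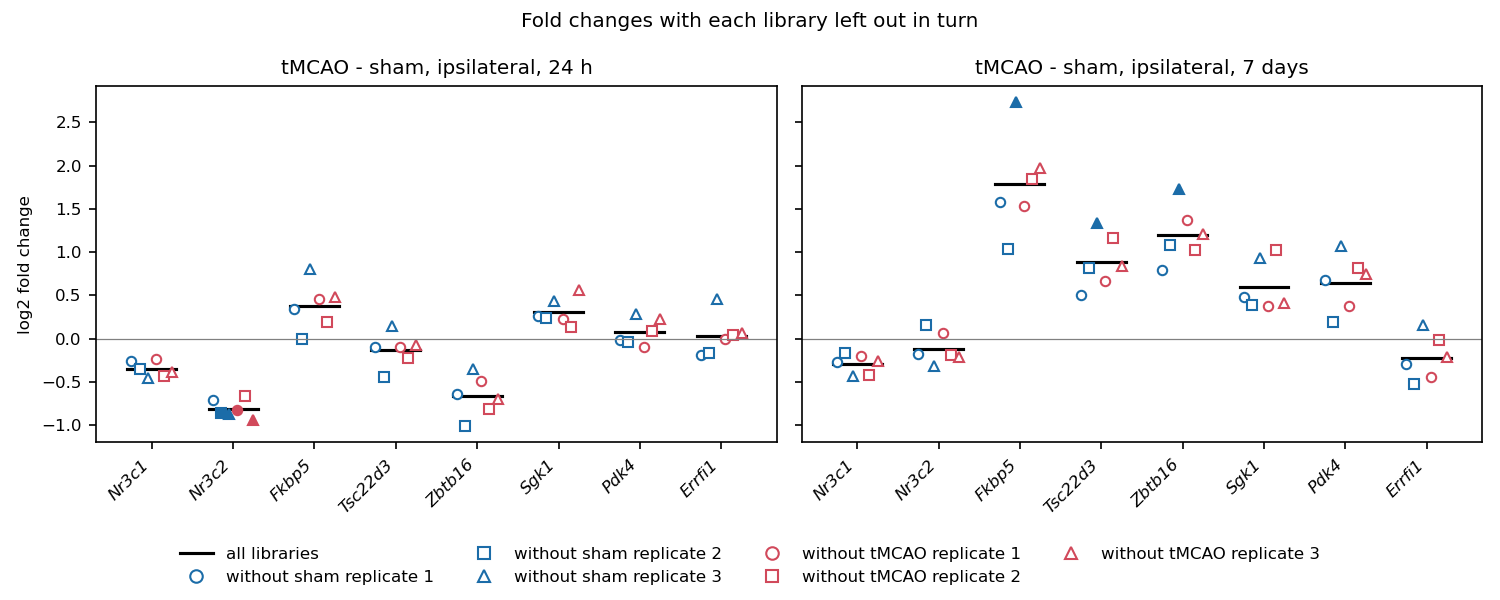
Log2 fold change between ipsilateral tMCAO and sham libraries for each gene with all libraries (black line) and with each library left out in turn (symbols); filled symbols are called. At 24 h the loss of sham replicate 1 or tMCAO replicate 2 ends the call of Nr3c2, and at 7 days Fkbp5, Tsc22d3 and Zbtb16 are called when sham replicate 3 is left out.

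The 26 other glucocorticoid-induced genes had a median stroke effect near 0 at 24 h and above 0 at 7 days. Ipsilaterally at 24 h 1 rose and 2 fell, where 18.3% of all genes were called, with a median log2 fold change of -0.04 beside -0.02 for all genes. The gene that rose was Il1r2, a decoy receptor for interleukin-1, from 12, 32 and 36 to 470, 308 and 249 normalized counts (log2 fold change 3.72, adjusted p = 0.00865). The largest fall was that of Cdkn1c, a cell cycle inhibitor, at -0.69 (adjusted p = 0.0207). Il1r2 is also expressed by neutrophils, whose markers rose in the same libraries as given above.

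At 7 days 7 of the 26 rose and 1 fell ipsilaterally, where 13.2% of all genes were called, and the median was 0.60 beside 0.02 for all genes. The 7 were Il1r2, Hif3a, Ddit4, Sult1a1, Arrdc2, Anxa1 and Klf9, of which those other than Il1r2 were named after their values were seen. Hif3a, a hypoxia-inducible factor subunit, had a log2 fold change of 1.95 (adjusted p = 0.000289) and Ddit4, an inhibitor of mTOR signaling, one of 1.38 (adjusted p = 0.0116). Crispld2, a secreted protein, fell by 0.79 on the log2 scale (adjusted p = 0.0415). Without sham pair 3 the count was 11 higher and 0 lower, with 12.2% of all genes called. Contralaterally the median was also 0.60, but 0 of 26 were called with all libraries and 2, Angptl4 and Hif3a, without sham pair 3. The stroke effects on Hif3a, Sult1a1 and Klf9 differed between 7 days and 24 h, by 2.61, 2.04 and 1.20 (adjusted p = 0.0015, 0.0141 and 0.00871).

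Among 19 chaperones and coregulators of the receptors, 3 rose and 0 fell ipsilaterally at 24 h, when 18.3% of all genes were called, with Hsp90ab1, the constitutive Hsp90, at 0.76, and none was called at 7 days. Of 6 tested genes of corticosteroid metabolism and transport, 2 rose and 1 fell in the same comparison. Hsd11b1, which regenerates active hormone from its inert form, went from 121, 210 and 169 to 320, 236 and 401 normalized counts (0.93, adjusted p = 0.0292). Abcb1a, an efflux pump of the P-glycoprotein type, fell from 35432, 28601 and 29198 to 16641, 14711 and 19865 (-0.87, adjusted p = 0.000441). Its close copy Abcb1b had a log2 fold change of 0.48 at 24 h (adjusted p = 0.042), under the fold limit. At 7 days it rose by 0.65 (adjusted p = 0.0134). The authors dropped reads that matched several genes, so reads shared by the copies were counted for neither.

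Genes around the single targets were counted as well, in comparisons that called 18.3% of all genes at 24 h and 13.2% at 7 days. Of 12 genes around Pdk4, 2 fell at 24 h, led by Ppara, a fatty acid sensor that induces Pdk4, at -1.13. Among 12 tested genes of the ErbB receptors that Errfi1 acts on, Hbegf, a ligand, rose by 1.15 and Erbb4 fell by 1.78 on the log2 scale at 24 h, and 3 fell at 7 days. Among 10 relatives of Tsc22d3 and Fkbp5, 3 rose and 1 fell at 24 h, with Fkbp1a, an abundant immunophilin, at 1.51 and Tsc22d1 at -0.85, and Fkbp10 was the 1 that rose at 7 days, at 0.93.

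Clock genes were looked up because hormone levels follow the time of day, which is not given for the collection of tissue in the sources used here. In the sham mice 3 of 16 clock genes were lower at 7 days than at 24 h ipsilaterally and 2 contralaterally, where 0.476% and 0.332% of all genes were called. The period gene Per2, itself a glucocorticoid target, was at 189, 246 and 280 normalized counts in the ipsilateral sham libraries at 7 days and at 598, 630 and 827 in those after tMCAO. In contrast to Fkbp5, Per2 was low in all 3 sham pairs at 7 days, pair 3 included, and its stroke effect was called ipsilaterally (1.52, adjusted p = 3.1e-05) and contralaterally (1.69, adjusted p = 0.000876). Ciart, a clock repressor, was at 48, 88 and 59 in ipsilateral sham libraries and at 133, 264 and 353 after tMCAO (1.86, adjusted p = 0.00106). Npas2 was lower, at 240, 156 and 164 in ipsilateral sham libraries and at 104, 56 and 84 after tMCAO. Of the 16 clock genes 2 were thus higher and 1 lower ipsilaterally at 7 days, where 13.2% of all genes were called. Contralaterally Per2 alone was called, where 0.0313% of all genes were. The part of the time of day in the levels of the 8 genes was not tested.

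For each gene the tested genes with the most similar pattern over the 24 libraries were sought, by the root mean square difference of log2 values centred on their own means. Nearest to Fkbp5 were Map3k6 (0.33), Doc2b and Lao1, while Fkbp5 itself had an SD of 1.07 over the libraries. Nearest to Tsc22d3 were Rnf103 (0.19), Bcl2l1 and Slc2a1, to Zbtb16 Coro2a (0.37), Dapk1 and Fam107a, and to Sgk1 Nfkbia (0.22), Cdc42ep4 and Zfp36. Pdk4 was followed most closely by Acer2 (0.28), Plk3 and Jaml and Errfi1 by Tmbim1 (0.26), Gcnt2 and St3gal1. The receptors had Afap1l2 (0.14), Gbp9 and Rassf3 beside Nr3c1 and Prdm16 (0.17), Maob and C130074G19Rik beside Nr3c2. Fam107a, Nfkbia and Zfp36 belong to the 26 other glucocorticoid-induced genes above.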

How the data were processed

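RNA of MBMVs from 24 pooled samples was sequenced from libraries of a stranded mRNA kit. The authors aligned trimmed reads to mm10, dropped reads that matched several genes and ran DESeq2. The submitters' processing notes name STAR 2.5.2b, featureCounts 1.5.1 and DESeq2 1.6.2, and the paper's text gives other versions of STAR and DESeq2. The deposited values are a score: the authors scaled read counts by DESeq2 size factors and gave them as whole numbers, so no count test was run. They set aside libraries judged to be outliers. Groups came from the labels.

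Values plus 1 were taken as log2 and the 15982 genes with a mean above 5 were fitted in limma 3.58.1 (R 4.3.3) using the mean-variance trend, with every group in 1 model. Benjamini-Hochberg adjustment ran over all of them, and a call needed an adjusted p under 0.05 and more than a 1.5-fold change. Standard errors and p-values rest on the spread between the pooled libraries within groups, estimated once per gene over all 8 groups. A gene thus had the same standard error in every comparison of 2 groups, whatever the spread in those groups. For Fkbp5 the log2 SD within a group ran from 0.32 (ipsilateral tMCAO, 24 h) to 1.95 (contralateral sham, 7 days). Size factors were estimated from gaps between low values, searched between fixed limits. Relations between pairs, chosen after the data were seen, used exact permutations within conditions (1296 in all) (Python 3.11.15, scipy 1.17.1). Plots used matplotlib 3.10.9. The fits were tested on simulated data.

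The 8 genes and all gene lists were chosen with earlier results of these data known. Named genes are all 8, the called gene of each list with the largest rise and fall in the tMCAO against sham comparisons, and the 3 nearest patterns per gene; a few others were named after their values were seen, such as those behind small counts and in comparisons between time points. Promoter windows are from RefSeq (GRCm38.p6).

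Same-numbered hemispheres of the sham mice were taken as pairs, from the numbers in the labels: their deviations from the group means correlated at 0.145 to 0.467 in all 6 pairs. The main fit had no term for pairs, so its comparisons between hemispheres are unpaired unless a block is named. For tMCAO, 3 of 6 pairs were over 0.1. Alternatives covered the pseudocount, the filter, 2 ways of centring, the replicate number or the pool as a block, the compared groups alone, no fold limit, and each library and each pair left out. The authors' qPCR and staining were not analysed here. The list around Sgk1 is not reported here.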

Additional observations from a re-analysis of the deposited data

How the results depend on the processing

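With 3 libraries a group, 1 library often decided a call. Of 8 genes, those called ipsilaterally in tMCAO against sham at 24 h numbered 1 with all libraries and 0 to 1 with a library or pair left out. At 7 days they numbered 0 with all libraries and 0 to 3 with some left out, and contralaterally 0 to 1. Between tMCAO hemispheres at 24 h the number of 1, with 13.6% of all genes called, became 2 with median centring (with Nr3c1, 14.6%), 0 with centring on endothelial markers (11.4%), 3 with the compared groups alone (with Tsc22d3 and Zbtb16, 12.7%), 2 without the fold limit (24.4%) and 0 to 2 with libraries left out. From 24 h to 7 days in ipsilateral tMCAO libraries 1, with 12.2% of all genes called, became 0 with endothelial centring (15.7%), 2 with the compared groups alone (9.47%) and 0 to 1 with libraries left out. Left-out libraries gave 0 to 1 in the sham mice between the time points ipsilaterally (Pdk4) and 0 to 2 for the interaction of stroke and time (Fkbp5 and Zbtb16 without sham pair 3 of 7 days). Beyond the smaller number of samples in some of these alternatives, the cause was not tested. The left-out pairs were added after the data were seen. The pseudocount, the filters and the replicate number as a block moved none of these counts, and no called value changed sign.

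The mouse pool as the replicate block called 3 of the 8 genes between tMCAO hemispheres at 24 h (Nr3c2, Tsc22d3 and Zbtb16), with 17.1% of all genes called, and 2 in the interaction with surgery (Nr3c2 and Zbtb16), with 11.7%. In that paired fit Tsc22d3 and Zbtb16 had adjusted p of 7.89e-05 and 0.00150 between the hemispheres, the interaction of Nr3c2 had one of 0.00118, and in the sham mice the block called none of the 8 genes, and 1 of all genes at 24 h. Whether tMCAO pairs share mice is a hint from the data alone: all 12 ipsilateral libraries correlated best with their own number. Median centring moved the median of all genes by at most 0.105 (log2) and endothelial centring by -0.292 to 0.130.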
